A study of Mus musculus with 16 samples.

Results

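The libraries named ifKO came from hippocampus of mice labelled as Kdm5c ifKO mutants, and they were compared here with the libraries of their own littermate controls, called ifWT. Both groups had 2 libraries of H3K4me3 chromatin immunoprecipitation, so 4 of the 12 H3K4me3 libraries and of the 16 libraries in all entered the comparison, chosen by their titles alone. The first control title reads H3K3me3, a misspelling, since its antibody label names H3K4me3. All mice were adult males of 2 to 4 months, each library pooled 2 mice, and both groups were on a pure C57BL/6J background in the basal state. A separate cohort of 8 libraries, used only for comparison, held mice labelled KO for Kdm5c and their WT littermates on a mixed F1:C57/129 background, either under standard conditions or after 1 h of novelty exposure, with 2 libraries in each group.

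Kdm5c is an X-linked histone demethylase that removes methyl groups from lysine 4 of histone H3, and its loss in humans causes intellectual disability. H3K4me3, the trimethylated form of that lysine, marks the starts of active genes and is weaker at enhancers. In the published study ifKO stands for an inducible, forebrain-restricted knockout, in which a tamoxifen-dependent Cre recombinase under Camk2a control removes Kdm5c from excitatory neurons; the sample labels do not state this. Camk2a encodes a calcium-dependent kinase of excitatory neurons, and tamoxifen-dependent Cre proteins carry the ligand-binding part of the estrogen receptor Esr1. In bulk hippocampus, a change in few cells and a smaller change in many cells cannot be told apart.

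The 4 libraries held 18181192 to 22996995 counts in 35996 regions. The 8 regions with the most counts, most of them between genes and of very high signal in every library, took 4.17% and 5.80% of the ifWT counts and 7.70% and 4.75% of the ifKO counts, against 1.59% to 2.34% in the KO cohort. Averaged over regions, squared differences between replicate counts of ifWT and ifKO were 4.32 and 7.33 times what counting error alone gives. Without those 8 regions they were 2.58 and 3.38 times as large, so no pair was a duplicate. The labels do not say that numbered replicates share a litter or a day, and p-values measure the spread between these pools. Levels are given as CPM, the counts relative to the library's total in regions after scaling, and changes as log2 ratios of ifKO over ifWT with their standard error (SE).

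Among the marker genes of hippocampal principal cells, the gene regions of Prox1, Neurod6 and Slc17a7 stood at 83.4, 42.6 and 55.1 CPM in ifWT and at 82.5, 50.4 and 57.5 CPM in ifKO. These genes encode factors of granule and pyramidal neurons and a vesicular glutamate transporter. The region at the start of Kdm5c (chrX:152232907-152234889) held 1187 and 1378 counts in ifWT and 1040 and 1061 in ifKO, or 57.7 ± 2.85 and 55.1 ± 3.85 CPM (SD, n = 2). The log2 change was -0.07 ± 0.07 (SE), and edgeR's quasi-likelihood test gave an adjusted p of 0.752. In KO the same region changed by -0.19 (adjusted p = 0.0208), and the difference between the lines did not pass (adjusted p = 0.768). A mark at the gene's start does not report a deletion inside the gene, so this value checks nothing about the genotype. None of the 19 regions within 500 kb of Kdm5c passed the threshold in either direction, where 3.90% of all tested regions were higher and 0.269% lower. The start regions of the paralogues Kdm5a, Kdm5b and Y-linked Kdm5d, which encode demethylases of the same family, had log2 changes of -0.01, -0.08 and 0.01 and did not pass either.

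Most called changes of H3K4me3 in ifKO were gains. Of 34569 regions that passed the filter on low counts, 1440 passed an adjusted p of 0.05 (4.17%), with 1347 higher (3.90%) and 93 lower (0.269%) in ifKO than in ifWT. In all, 5102 regions had an unadjusted p under 0.05. The higher regions were mostly of low to middle level, with a median of 5.95 CPM in ifWT and 12.1 CPM in ifKO. All tested regions had a median mean log2 CPM of 2.84. Of the higher regions, 148 had less than 1 CPM in ifWT, and the share of all regions under that level was not taken. Among the 9626 tested regions with a mean log2 CPM below 1, 139 (1.44%) were higher. The median rise was 0.86 on the log2 scale, 543 regions (40.3%) rose at least 2-fold and 80 at least 4-fold. The lower regions were strong and moved little, from a median of 79.9 CPM to 65.7 CPM, with a median size of 0.275 and only 5 falls of 2-fold or more. DESeq2 called 691 higher and 15 lower regions. Leaving out ifWT replicate 1, ifWT replicate 2, ifKO replicate 1 or ifKO replicate 2 left 884, 923, 921 or 1758 higher regions and 24, 148, 35 or 408 lower ones.

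**Figure D1:**
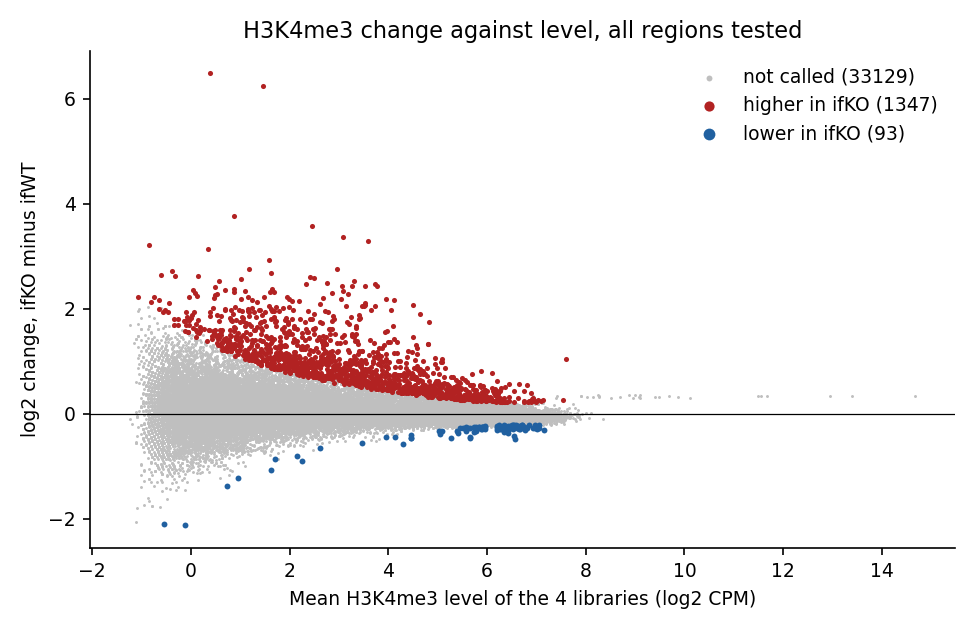
Each point is 1 of the 34569 regions tested, with the mean level of the 4 libraries on the x axis (log2 CPM) and the log2 change, ifKO minus ifWT, on the y axis. The 1347 higher regions (red) lie mostly at low and middle levels, whereas the 93 lower regions (blue) lie close to the zero line and mostly at high levels.

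The share of called regions varied with position and strength. Higher calls made up 8.31% of the 6333 regions with a mean log2 CPM of 2 to 4, against 1.44% of those below 1, where counts are few, and 1.3% of the 5791 at 6 and above. At levels of 2 to 4, 11.6% of the regions inside genes, 9.35% of those between genes, 7.49% of those at other gene ends and 6.34% of those at gene starts were higher. At levels of 4 to 6 these shares were 11.4%, 14.5%, 6.84% and 3.20%. Gene starts known to the promoter table, the usual place of this mark, thus had the smallest share at both levels. That table holds starts for 27025 genes, against 49997 in the gene table, so the gene ends include starts of other genes. Of the 93 lower calls 63 were at gene starts, which hold most of the strong regions. At a mean log2 CPM of 6 and above, 0.801% of the gene starts, 0.814% of the gene ends and 1.42% of the regions inside genes were lower, the last being 2 of 141. Over all regions the median log2 change was 0.00, but it was -0.03 at gene starts and 0.10 inside genes. The 19 autosomes had between 2.53% and 5.56% of their regions higher.

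Regions listed in the deposited Kdm5C files, from chromatin precipitated with an antibody against Kdm5C, were compared by overlap. Of the 2314 tested H3K4me3 regions that overlapped a listed Kdm5C region, 4.80% were higher and 0.346% lower in ifKO. Since the listed regions are strong in H3K4me3, the shares were also taken at mean log2 CPM of 5 to 7: there 3.81% of 1941 overlapping regions and 1.98% of 8448 others were higher, whereas 0.361% and 0.769% were lower. Over 4 classes of equal size from the lowest to the highest Kdm5C signal per base in WT, the higher share was 4.15%, 3.29%, 5.02% and 6.74%. The Kdm5C values rest on 1 library of each genotype, and these shares carry no test.

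Among the 15 largest rises, chosen for libraries that do not overlap, the largest at a gene start was at Cacng6, which encodes a gamma subunit of voltage-gated calcium channels. Its region (chr7:3423573-3425168) held 54 and 47 counts in ifWT against 493 and 358 in ifKO, a level of 2.28 ± 0.351 against 22.2 ± 3.76 CPM (SD, n = 2). Both ifKO libraries lay far above both controls. The log2 change was 3.28 ± 0.18 (SE; edgeR adjusted p = 1.37e-13). In the KO cohort the same region went from 79 and 75 counts in WT to 831 and 842 in KO, a log2 change of 3.24. The 150 bases before its start in the RefSeq promoter table (GRCm38.p6, plus strand, chr7:3424512-3424661) are shown because this start gained the mark in both lines; no CACGTG, the E-box hexamer, occurs in them.

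Cacng6: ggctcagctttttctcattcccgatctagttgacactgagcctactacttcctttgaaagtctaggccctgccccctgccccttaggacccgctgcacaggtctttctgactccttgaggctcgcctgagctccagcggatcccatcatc

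Several other weak regions rose more than 4-fold. At the shared ends of Gins2, a subunit of the replicative helicase complex, and Gse1 (chr8:120577801-120580384), 11 and 27 counts in ifWT compared with 263 and 134 in ifKO, a log2 change of 3.59 ± 0.30. The ifKO libraries differed from each other there, at 13.3 and 7.31 CPM, yet both stood above the 0.516 and 1.17 CPM of the controls. The stronger region at the start of Gins2 itself had a log2 change of -0.18 and did not pass. Rin1, which encodes an effector of Ras in neurons of the forebrain, had a narrow region near its annotated start and within the neighbouring Brms1 (chr19:5049147-5049516), with 18 and 13 against 116 and 89 counts, a log2 change of 2.93 ± 0.30. Glp2r, the receptor of glucagon-like peptide 2, had 10 and 16 against 94 and 58 counts at its end, which lies within Gas7 (chr11:67665170-67666830), a change of 2.75 ± 0.35. Each of these passed edgeR's test with an adjusted p of 1.54e-06 or less.

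Inside genes, the same pattern was seen at Depdc5, a subunit of the GATOR1 complex that restrains mTORC1, where 97 and 87 counts became 487 and 392 (chr5:32989843-32991425; log2 change 2.47 ± 0.16). Itga11, an integrin chain that binds collagen, went from 36 and 33 to 187 and 144 counts (chr9:62763811-62765511; 2.47 ± 0.23). Klhl29, a kelch-like protein gene, went from 69 and 67 to 368 and 270 counts (chr12:5268344-5269832; 2.44 ± 0.18). All 3 lie within the gene body and away from annotated ends, and in each the lower ifKO library exceeded the higher control severalfold. Rises at the starts of 6430584L05Rik, Gm35823 and Gm40290 were 2.53, 2.44 and 2.56. A region between genes next to Lrpap1, which encodes a chaperone of LDL-family receptors, rose by 2.58. All 15 largest rises passed edgeR's test under all 14 alternative settings.

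**Figure D2:**
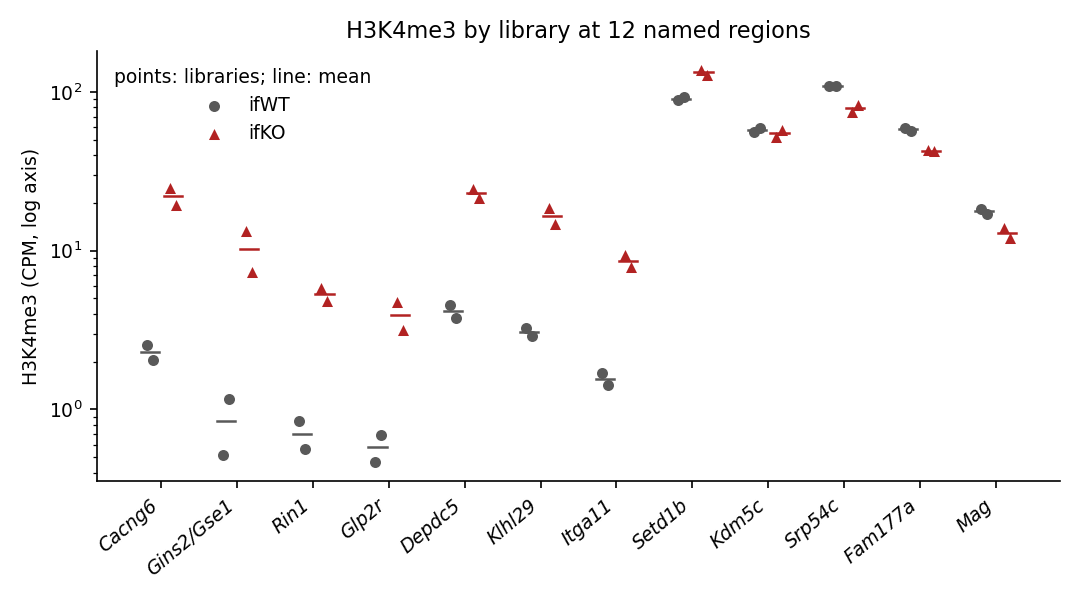
H3K4me3 level (CPM, log axis) of each library at 12 named regions, with circles for the 2 ifWT and triangles for the 2 ifKO libraries and a line for each mean; Gins2/Gse1, Glp2r, Setd1b and Fam177a are regions at gene ends. At the 8 leftmost genes both ifKO libraries stand above both controls, Kdm5c overlaps, and Srp54c, Fam177a and Mag are lower in ifKO.

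Among strong regions, Setd1b rose, a gene for a methyltransferase of the COMPASS family that trimethylates H3K4. Its region, at a gene end and within the neighbouring Rhof (chr5:123138457-123140577), held 1900 and 2132 counts in ifWT and 2718 and 2356 in ifKO, or 90.7 ± 2.31 and 133 ± 6.00 CPM (SD, n = 2). The log2 change was 0.55 ± 0.06 (edgeR adjusted p = 2.54e-07), and in KO it was 0.56, so both lines differed by 0.00 on the log2 scale (adjusted p of the difference 0.997). Kmt2c, another H3K4 methyltransferase of large enhancer-bound complexes, fell by 0.29 ± 0.07 at its start, from 2464 and 2445 to 1635 and 1804 counts (edgeR adjusted p = 0.0102). That call was lost without ifKO replicate 1 and without ifWT replicate 1, with an adjusted p of up to 0.507. Of 19 tested genes for H3K4 methylation and demethylation, 1 was higher and 1 lower. Over the 16492 regions that stand for a gene, 2.86% were higher and 0.455% lower. The median of the 19 was -0.07, against -0.03 over those regions. Of the 19, 16 had a log2 change below 0, where 38.8% of those regions lay above 0. The 19 are mostly strong, with a summed level of 1930 and 1867 CPM in ifWT. Among gene starts with a mean log2 CPM of 6 and above, 24.0% lay above 0.

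Zfp532, which encodes a zinc finger protein, had a strong region at its lower end (chr18:65579782-65581574) with 1562 and 1539 against 2090 and 1880 counts, a log2 change of 0.57 ± 0.07. Just outside the gene, a narrow neighbouring region of 666 bases rose from 21 and 24 to 104 and 90 counts, a change of 2.32 ± 0.28. In the KO cohort the strong region went from 1097 and 1134 counts in WT to 2518 and 2881 in KO, a rise of 1.07. Its mean level was 70.0 CPM in ifWT and 50.6 CPM in WT, against 104 CPM in ifKO and 106 CPM in KO. These levels were scaled within each cohort. The difference between the lines, 0.49 ± 0.09, passed with an adjusted p of 0.00426. It was lost without WT replicate 1 of the KO cohort, with an adjusted p of 0.0527. Sox18, a transcription factor gene of endothelial cells, rose by 0.58 ± 0.08, from 802 and 753 to 1057 and 952 counts (edgeR adjusted p = 7.91e-06). It was the only called gene of the 10 vascular markers, of which the other 9 had log2 changes below 0. Of the regions that stand for a gene, 2.86% were higher and 38.8% lay above 0.

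A single stretch of chromosome 18 around Camk2a rose as a block. At the lower end of the gene (chr18:60925613-60929614), counts were 2860 and 2781 in ifWT and 5293 and 4684 in ifKO, or 127 ± 9.64 and 261 ± 7.99 CPM (SD, n = 2). The log2 change was 1.04 ± 0.07 (edgeR adjusted p = 1.84e-12). In KO, with 3332 and 3725 counts in WT against 4134 and 4183, it was 0.04, and the difference between the lines, -1.01 ± 0.09, passed with an adjusted p of 2.54e-07. Of the 30 tested regions within 500 kb of the gene, 10 were higher and none lower, against 3.90% and 0.269% of all tested regions.

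The 8 neighbouring regions in a run of 155 kb (chr18:60859332-61014440) were all higher, by 0.55 to 3.36. Within the gene, at the end of the transcript Gm46632 (chr18:60977783-60978714), 27 and 41 counts became 313 and 289, a log2 change of 3.36 ± 0.20, whereas KO changed by 0.01 there. Arsi, an arylsulfatase gene on the lower side, went from 208 and 185 to 803 and 623 counts, a change of 2.07 ± 0.12 against 0.57 in KO. At the far end, Slc6a7, the brain proline transporter gene, rose by 0.55 ± 0.07 from 873 and 1014 to 1192 and 1187 counts. Next to the run, Tcof1 on one side and Pdgfrb on the other had log2 changes of -0.07 and -0.15 and did not pass. Outside the run, 2 of 22 tested regions were higher, both inside Synpo, an actin-associated protein gene of dendritic spines, by 0.84 and 0.22. These calls were lost under 4 and 5 of 14 alternatives, with adjusted p of up to 0.204 and 0.361. Both were lost with DESeq2 and without ifKO replicate 1 or ifWT replicate 2, and the larger one also without ifWT replicate 1. In 3 of the 8 regions the rise exceeded that of KO by the test of the difference: Arsi, Camk2a and Gm46632. In KO itself 5 of the 8 were called higher.

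**Figure D3:**
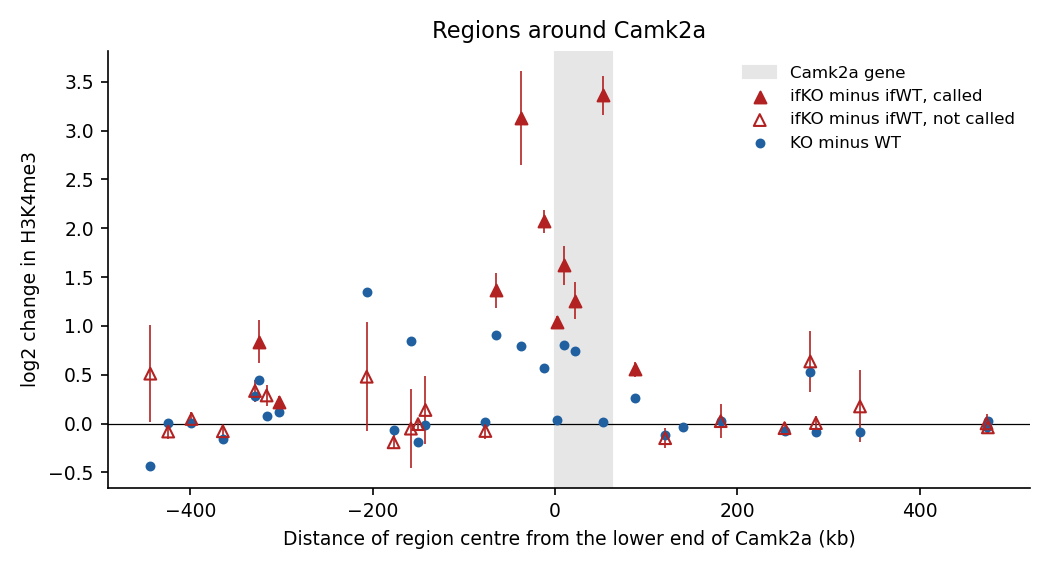
log2 change in H3K4me3 (y axis) of regions within 500 kb of Camk2a, by the distance of the region's centre from the gene's lower end in kb (x axis); triangles are ifKO minus ifWT with SE bars, filled where called, and circles are KO minus WT under standard conditions. The 8 regions of the run rise by 0.55 to 3.36 in ifKO; on either side, 2 regions in Synpo were also called and the others were not.

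The largest log2 changes of all called regions lay inside Esr1 on chromosome 10. Only the region at chr10:4997679-4998117 came from the rule for named regions, and the others of that gene were added after its value was seen. It held 2 and 1 counts in ifWT and 101 and 111 in ifKO, and the pooled ratio was 82.2 with a 95% counting interval from 27.7 to 402. A second region (chr10:4856861-4857246) held 1 and 0 against 59 and 39 counts, a ratio of 114 with an interval from 19.98 to 4547. The third (chr10:4939080-4939488) held 7 and 4 against 60 and 71 counts, a log2 change of 3.76 ± 0.42. These regions are narrow, at 438, 385 and 408 bases, and none of the 10 libraries other than ifKO held more than 7 counts in any of them. The other 4 Esr1 regions, including that at the first listed start (chr10:4611469-4612878; 121 and 173 against 113 and 132 counts), had log2 changes between -0.07 and 0.32 and did not pass. The part of a transgene in the Camk2a and Esr1 values was not tested.

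Falls were small, and 11 of the 15 largest were lost under at least 1 alternative. The 4 that passed under all 14 were neighbours on chromosome 12 within chr12:55123828-55231426, at the ends or starts of Fam177a, Srp54b, Fam177a2 and Srp54c. Srp54c, a gene for the 54 kDa subunit of the signal recognition particle, held 2339 and 2525 counts in ifWT and 1492 and 1517 in ifKO, or 110 ± 0.21 and 78.9 ± 5.33 CPM (SD, n = 2). Its log2 change was -0.47 ± 0.06 (edgeR adjusted p = 5.7e-06), with -0.46, -0.45 and -0.42 at Fam177a2, Fam177a and Srp54b. The flanking regions at Srp54a and Ppp2r3c had log2 changes whose adjusted p was 0.897 and 0.700. The Srp54 genes, and likewise the Fam177a genes, are near-identical copies, so reads could have been split among them. The controls of both cohorts, each scaled within its cohort, also differed there. Fam177a stood at 58.2 CPM in ifWT and 109 CPM in WT, and Srp54b at 108 and 195 CPM. Fam177a2 stood at 57.9 and 112 CPM and Srp54c at 110 and 208 CPM. The flanks stood at 114 and 147 CPM (Srp54a) and at 102 and 102 CPM (Ppp2r3c). The source of these differences was not tested. In KO the 4 regions changed by -0.08 to -0.02, and the difference between the lines passed for Srp54c, Fam177a and Fam177a2 (adjusted p 0.0182, 0.0232 and 0.024) and not for Srp54b (0.0592). Those 3 differences were lost under 5 to 7 of 13 alternatives, with adjusted p of up to 0.186. Leaving out either WT replicate of the KO cohort, or its KO replicate 2, ended each of the 3; leaving out ifKO replicate 1 ended Srp54c, ifWT replicate 1 both Fam177a genes and ifWT replicate 2 Fam177a2.

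Among other falls, Myo5b, a myosin that carries recycling endosomes, went from 520 and 516 to 300 and 298 counts (-0.58 ± 0.12; edgeR adjusted p = 0.00141), with -0.47 in KO. Without ifWT replicate 1 its adjusted p was 0.0551. En2, a homeobox gene of the midbrain and cerebellum, went from 546 and 559 to 356 and 360 counts (-0.41 ± 0.11; adjusted p = 0.0238), whereas it rose by 0.40 in KO. The difference, 0.79 ± 0.15, passed with an adjusted p of 0.00653 and was lost without WT replicate 1 of the KO cohort (0.0615), and the fall itself was lost without ifWT replicate 1 (0.297), ifKO replicate 1 (0.186) or ifWT replicate 2 (0.0732). Mag, a myelin gene of oligodendrocytes, went from 390 and 394 to 275 and 221 counts (-0.45 ± 0.13; adjusted p = 0.0462), a call lost without ifWT replicate 1 (0.403), ifWT replicate 2 (0.102) or ifKO replicate 2 (0.171). Ikzf1, a transcription factor gene of blood cells, fell by 0.44 ± 0.12, and that call was lost without ifWT replicate 1 (0.464) or ifKO replicate 1 (0.106). Over the 15 falls, 10 were lost without ifWT replicate 1, 9 without ifKO replicate 1, 6 without ifWT replicate 2 and 3 without ifKO replicate 2, with adjusted p of up to 0.783.

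Other markers of the same cell type also lay below 0. Of 9 tested markers of the oligodendrocyte lineage, 8 had log2 changes below 0 with a median of -0.21, their summed level was 224 and 217 CPM in ifWT against 204 and 191 CPM in ifKO, and Mag alone was called. Of 25 tested genes of the interferon response, 23 were below 0 with a median of -0.15, and only Stat2, a transcription factor of that response, was called lower (-0.25 ± 0.07; edgeR adjusted p = 0.0478). Stat2 was lost under 10 of the 14 alternatives, among them each library left out, with an adjusted p of up to 0.334. Over all regions that stand for a gene, 38.8% had log2 changes above 0. Astrocyte, microglia and interneuron markers had no called gene among 7, 8 and 9 tested, and medians of 0.04, -0.01 and 0.02. In the list of pyramidal and granule neurons, Camk2a, which lies in the block on chromosome 18, was the only one of 10 called. Of all regions that stand for a gene, 2.86% were higher and 0.455% lower. The part of cell composition in these changes was not tested.

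Of the genes induced by neuronal activity, none of 39 was called, with a median of -0.02. Over all regions that stand for a gene 2.86% were higher and 0.455% lower, so a count of 0 in a list of this size is near the background, as it is in the other lists without a call. At their main regions Fos had 1007 and 1002 against 893 and 825 counts (-0.01 ± 0.08), Arc -0.07 ± 0.07, Egr1 -0.10 ± 0.08 and Bdnf -0.01 ± 0.07. Fosb and Nr4a1, which like Fos and Egr1 encode transcription factors of the early response, had 0.06 and -0.04. A second region at the other end of Npas4, a transcription factor gene of excitatory and inhibitory synapse balance, was called with 85 and 120 against 164 and 120 counts (0.69 ± 0.20; adjusted p = 0.0443). Its groups touch at 120 counts before scaling, and the call was lost under 7 of 14 alternatives, including those without ifWT replicate 1 (0.487) and without ifKO replicate 1 (0.418). The groups of glutamate and GABA receptors (35 genes), synaptic vesicle release (28), ribosomal proteins (50) and genes of intellectual disability and autism (28 tested) also had no called member, with medians of 0.02, -0.01, -0.03 and -0.02. In KO, 12 of the 50 ribosomal protein genes were lower, against 9.44% of regions that stand for a gene.

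The KO cohort shares no library with ifKO and ifWT, so its calls were set beside theirs. In KO against WT under standard conditions, 5626 of 35311 regions were called (15.9%), 3848 higher (10.9%) and 1778 lower (5.04%). Of the regions tested in both cohorts, 1116 were higher in both, which is 83.1% of the 1343 higher in ifKO and 30.3% of the 3681 higher in KO. After novelty, 8203 regions (23.0%) were called in KO and 1143 of the ifKO rises were also higher there, or 85.0%, where 13.6% of all regions were higher. The sign of the KO change was positive for 98.1% of the ifKO rises, against 51.1% of all regions, and their median change was 0.86 in ifKO and 0.78 in KO. Across the 34189 regions Pearson's r between both changes was 0.46 and Spearman's rho 0.36, as a description over regions that share libraries. Of the 93 falls, 7 (7.53%) were lower in KO under standard conditions, against 5.04% of all regions and 9.44% of those that stand for a gene. In 63 (67.7%) the KO change was below 0. After novelty 42 (45.2%) were lower in KO, against 9.46% of all regions, and 89 (95.7%) were below 0. The falls were mostly strong regions, and none of these background shares was matched for strength.

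Most regions that gained in KO had changes above 0 in ifKO. Regions higher in KO had a median change of 0.78 in KO and 0.35 in ifKO, and 84.9% were above 0 in ifKO. For KO rises under 0.5, from 0.5 to 1, from 1 to 2 and of at least 2 on the log2 scale, the ifKO medians were 0.20, 0.42, 0.66 and 1.47, each below the KO median of its class. Regions lower in KO had a median of -0.19 in KO and -0.08 in ifKO. All of these sets and classes were chosen on KO values, which inflates the size of the KO medians. Among the regions higher in ifKO, chosen on ifKO values, the medians were 0.86 in ifKO and 0.78 in KO. The smaller ifKO medians can therefore come from the choice of regions. The lines differ in strain background and cohort as well as in the kind of deletion, and these cannot be told apart.

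**Figure D4:**
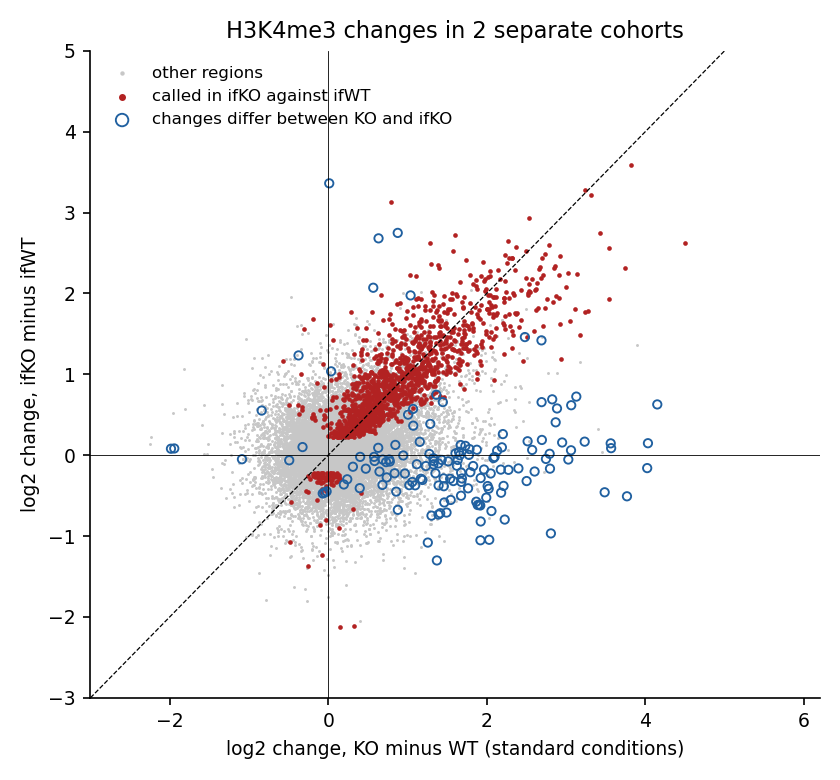
log2 change in KO against WT under standard conditions (x axis) and in ifKO against ifWT (y axis) for regions tested in both; red points were called in ifKO, open circles mark the regions whose changes differ by the test on 8 libraries (called in ifKO or not), and the dashed line marks equal change. Red points lie on both sides of that line, and most circles lie to the right near 0 in ifKO.

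The test of the difference itself called 149 of 35791 regions (0.416%). The change in KO exceeded that in ifKO in 136 (0.380%) and was below it in 13 (0.0363%). Of the 136, 132 were higher in KO, with a median change of 1.68 in KO and -0.16 in ifKO. Leaving out WT replicate 1 or 2 of the KO cohort left 81 or 59 differences, and leaving out ifKO replicate 2 gave 290. Those larger in KO numbered 63, 54 and 60 without WT replicate 1, WT replicate 2 or ifWT replicate 2. Those larger in ifKO numbered 5 without WT replicate 2 and 23, 95, 29 and 41 without ifKO replicate 1, ifKO replicate 2, ifWT replicate 1 or ifWT replicate 2. The region inside Ssh1, a phosphatase gene that activates cofilin, lies at chr5:113942805-113943958 and had 6 and 5 counts in ifWT and 4 and 9 in ifKO, too few to pass the filter. In KO it had 201 and 169 counts against 5 and 3 in WT, and the difference of 4.83 ± 0.83 passed with an adjusted p of 0.00363; it was lost without ifWT replicate 1 (0.0544).

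Others of that kind were also low in both groups of the ifKO cohort. Near Gm16013 (chr11:71434923-71436669), counts were 19 and 31 in ifWT and 14 and 16 in ifKO, against 13 and 16 in WT and 250 and 206 in KO. Its difference was 4.27 ± 0.47 (adjusted p = 8.66e-06). Between genes near Cdk19, which encodes a Mediator kinase (chr10:40494705-40495969), counts were 13 and 10 in ifWT, 12 and 10 in ifKO, 8 and 7 in WT and 177 and 107 in KO. Ogn, the gene of the matrix proteoglycan osteoglycin, was the reverse: 129 and 160 counts in WT fell to 38 and 46 in KO, whereas 56 and 50 in ifWT compared with 36 and 60 in ifKO. The log2 changes were -1.98 and 0.08, and the difference of -2.07 ± 0.37 passed (adjusted p = 0.0047), though not without WT replicate 2 of the KO cohort or without ifKO replicate 2, with adjusted p of up to 0.0554.

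Where the change in ifKO exceeded that in KO, the Camk2a block supplied 3 of the 13 regions. Of the 13, 8 were called higher in ifKO, 6 were called lower in KO and 3 were called higher in KO. Wbp11, a splicing factor gene, had a region at its end (chr6:136815410-136817530) with 41 and 50 against 316 and 213 counts, a log2 change of 2.75 ± 0.21. There the KO cohort started from 496 and 558 counts in WT and reached 1082 and 1145 in KO, a change of 0.88, and the difference of -1.89 ± 0.21 passed with an adjusted p of 9.89e-06. At the start of Gm46874 (chr4:141885307-141886525), 17 and 20 counts became 123 and 83 in ifKO, against 48 and 47 and 81 and 89 in the KO cohort. Henmt1, a methyltransferase gene for the ends of small germline RNAs, rose from 62 and 63 to 128 and 125 counts at its start (chr3:108939788-108940466; 1.23 ± 0.21), and its change in KO was -0.37. Its difference of -1.62 ± 0.31 was lost under 4 of 13 alternatives, namely without either WT replicate of the KO cohort, without its KO replicate 1 and without ifWT replicate 2, with adjusted p of up to 0.0707.

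Genes of the germline, which Kdm5c is known to keep silent in the brain, had many weak or absent regions. Of 48 listed genes 20 had a region, of which 17 passed the filter in ifKO, and none was called. Since 3.90% of all regions and 2.86% of those that stand for a gene were higher, a count of 0 among 17 is near the background. Of the 17, 16 were above 0, with a median of 0.19. Among all tested regions, 58.8% of those with a mean log2 CPM below 1 lay above 0, and 62.3% of those at 2 to 4. These shares were not matched to the list. By KO against WT, 11 of 19 tested were higher, against 8.19% of regions that stand for a gene, with a median of 0.48, but D1Pas1, Cyct and Ccnb1ip1 passed the filter only there. The difference between the lines passed for 1 gene of the list, D1Pas1. Sycp3, of the synaptonemal complex, had 11 and 14 counts in ifWT and 22 and 22 in ifKO, a log2 change of 1.03 ± 0.44 (edgeR adjusted p = 0.252). It went from 28 and 33 to 117 and 98 counts in KO (1.62). Stk31, a kinase gene of the testis, had 7 and 8 against 18 and 18 (1.47 ± 0.51; adjusted p = 0.111), and Ddx4, the germ cell RNA helicase, 12 and 15 against 12 and 34 (0.99 ± 0.48; 0.329). Both ifKO libraries exceeded both controls at Sycp3 and Stk31, whereas Ddx4 rested on ifKO replicate 2.

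For D1Pas1, a helicase gene of spermatogenic cells, the ifKO cohort showed no gain at this depth. Counts were 3 and 6 in ifWT and 3 and 5 in ifKO, or 0.203 CPM (95% Poisson interval 0.0927 to 0.385) and 0.209 CPM (0.0904 to 0.413) in the pooled libraries. In KO they rose from 3 and 1 to 64 and 78, and the difference between the lines of 4.79 ± 0.99 passed with an adjusted p of 0.019. It was lost by limma-voom and without WT replicate 2 of the KO cohort or ifWT replicate 2, with adjusted p of up to 0.329. Cyct, the testis cytochrome c gene, had 2 and 7 against 4 and 5 counts, and 66 and 63 in KO; its difference of 3.23 did not pass (adjusted p = 0.172). Dazl, whose product binds RNA in germ cells, had a strong region with log2 changes of 0.31 in ifKO and 0.24 in KO, neither called.

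**Figure D5:**
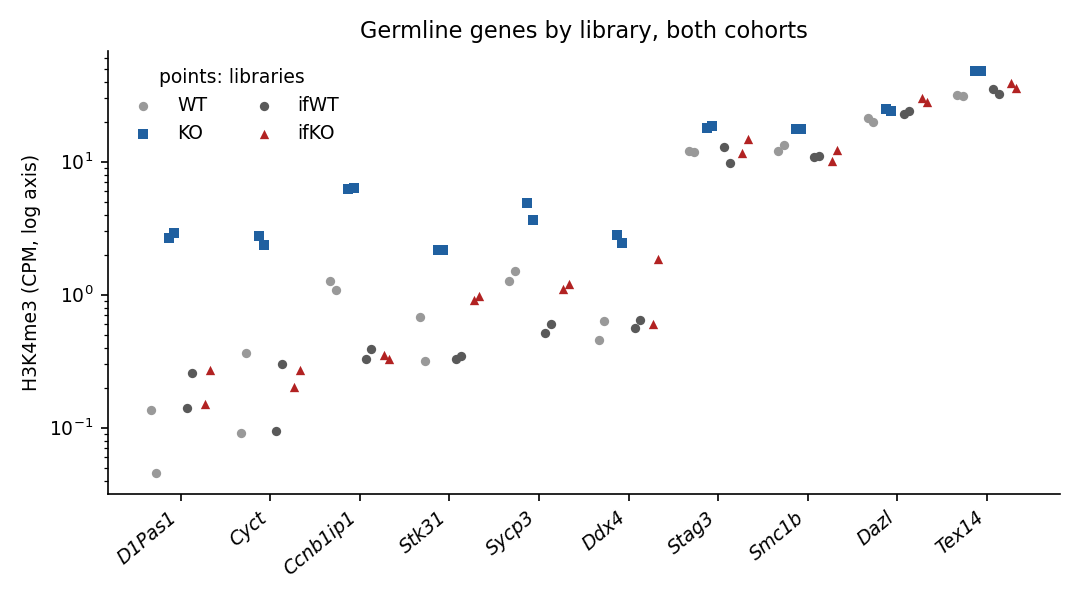
H3K4me3 level (CPM, log axis) of each library at the starts of 10 germline genes, in the KO cohort (light circles for WT, squares for KO, standard conditions) and the ifKO cohort (dark circles for ifWT, triangles for ifKO), with 2 libraries a group. KO libraries stand well above WT at D1Pas1, Cyct and Ccnb1ip1 while ifKO and ifWT overlap there, and at Stk31 and Sycp3 both mutants stand above their controls, uncalled in ifKO; levels are scaled within each cohort.

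The promoters of 4 germline genes are shown to set genes whose ifKO values were above 0 without a call beside one with no gain. Each sequence holds the 150 bases before the start from the RefSeq promoter table (GRCm38.p6), 5′ to 3′ on the gene's strand, with CACGTG in capitals. Sycp3 lies on the plus strand at chr10:88459437-88459586, Stk31 on the plus strand at chr6:49395454-49395603, Ddx4 on the minus strand at chr13:112652311-112652460 and D1Pas1 on the plus strand at chr1:186967266-186967415.

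Sycp3: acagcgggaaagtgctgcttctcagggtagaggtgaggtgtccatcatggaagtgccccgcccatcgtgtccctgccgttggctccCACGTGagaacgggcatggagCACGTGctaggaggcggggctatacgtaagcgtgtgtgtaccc

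Stk31: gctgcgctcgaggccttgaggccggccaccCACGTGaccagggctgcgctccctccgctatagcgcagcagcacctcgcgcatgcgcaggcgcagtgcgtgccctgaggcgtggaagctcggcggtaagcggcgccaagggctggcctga

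Ddx4: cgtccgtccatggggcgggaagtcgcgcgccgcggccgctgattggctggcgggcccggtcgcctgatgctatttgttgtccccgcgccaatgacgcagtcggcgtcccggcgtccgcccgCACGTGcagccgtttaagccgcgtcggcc

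D1Pas1: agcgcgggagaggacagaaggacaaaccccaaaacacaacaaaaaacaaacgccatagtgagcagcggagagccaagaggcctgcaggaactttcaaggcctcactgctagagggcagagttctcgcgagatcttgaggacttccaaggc

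Sycp3 holds 2 copies of CACGTG, Stk31 and Ddx4 hold 1 each and D1Pas1 none in this window. Over promoters of 250 bases before to 50 after a start, CACGTG, a palindrome that reads alike on both strands, occurred in 6 of the 18 listed germline genes with a promoter in the table. Of those 6, 4 were higher in KO, and of the 12 without it, 7 were. None of either was called in ifKO. The other listed genes with it, Stag3, Nxf2 and Syce2, had ifKO log2 changes of 0.22, 0.19 and 0.03. Among the tested genes without it, the changes ran from -0.49 at Dmc1 to 0.70 at Rec8. The 4 promoters shown were picked, so they do not show whether CACGTG goes with the ifKO change. At the 441 gene starts higher in ifKO, 9.56% of 596 promoters held it, against 9.44% of the 17947 promoters at all tested starts and 7.15% of the whole table. TCCCGC, the core of sites of the E2F family, searched on both strands, occurred in 19.8% of the promoters at higher starts and 33.1% of those at all tested starts. The higher starts were also less rich in G and C, with a median of 55.7% against 60.3%, and at the 63 lower starts the median was 69.3% and TCCCGC occurred in 43.2%. These shares are descriptions and carry no test, and base composition and TCCCGC move together in them.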

How the data were processed

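The 12 H3K4me3 files hold whole-number raw counts per region, per the file headers, and the same 36005 regions in each; 9 repeated regions with identical counts were used once. Per the submitters' processing notes the build was mm10 (GRCm38), the tools listed include MACS2 2.1.0, R 3.3, Bowtie2 2.2.9 and featureCounts, and neither their order nor the making of the common regions is stated in what was used here. The Kdm5C files hold a signal per region as deposited by the authors, used only for overlap and rank; H3K4me1 was not used here. Groups came from titles and genotype labels.

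Counts of ifKO and ifWT were fitted with edgeR 4.0.16 (R 4.3.3; TMM scaling, filterByExpr, quasi-likelihood F test, Benjamini-Hochberg over 34569 regions, threshold 0.05); 1427 regions were removed by the filter. KO against WT was fitted alike on its own 4 libraries, and the difference between the lines on 8. The SE is the log2 change divided by the square root of F. Intervals and floors cover counting error only, and PCR copies were not separable. On data simulated for ifKO against ifWT over 34133 regions, 65% of changes of 0.5 and 90% of changes of 1 on the log2 scale were called, and 12 of 167 calls were false. The changed regions were drawn only from those above a minimum mean CPM. Recovery of changes in weaker regions was not simulated. Coordinates are those of the files.

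Regions were placed with RefSeq GRCm38.p6 tables: gene start (a promoter-table start within 2 kb), gene end (either end of a gene within 2 kb), inside or between genes, the latter named for the nearest gene within 50 kb; a gene was represented by the region with the most counts near its start. The promoter table holds no start for chromosome 18, so the start of Camk2a and others there is given as an end. Starts on other chromosomes that the table lacks are likewise given as ends. Named regions were the targeted gene and a fixed set of others, the 15 largest rises and falls with mean log2 CPM of at least 1 and no overlap of libraries, leading members of 17 lists, the 6 largest differences in each direction and the surroundings of Kdm5c and Camk2a. Members and lists were chosen with earlier results of these data known. Alternatives were other scalings, tests and filters, all 12 libraries, a replicate block, each library left out and, added after seeing the data, the 8 strongest regions left out (limma 3.58.1, DESeq2 1.42.0).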

Additional observations from a re-analysis of the deposited data

Results flagged for a closer look

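Each result here was taken up because the change in KO against WT under standard conditions and the change in ifKO against ifWT differed by edgeR's test of the difference on 8 libraries, which 149 regions passed. Values are log2 changes in KO minus those in ifKO. The change was larger in KO inside Ssh1 (4.83), at D1Pas1 (4.79), at Gm16013 (4.27), near Gm33919 (4.17), near Cdk19 (3.87), inside Gm29642 (3.47) and Gm41429 (3.07), and at Zfp532 (0.49). The opposite sign was found at Gm46632 within Camk2a (-3.36), Ogn (-2.07), Gm46874 (-2.06), Zfp972 (-2.04), Wbp11 (-1.89), Henmt1 (-1.62), Arsi (-1.51) and Camk2a (-1.01). At En2 the difference was 0.79, with a fall in ifKO and a rise in KO. At Srp54c, Fam177a2 and Fam177a it was 0.39, 0.40 and 0.42, with falls in ifKO alone called.

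Of these 20 differences, 7 passed under all 13 alternatives: Camk2a, Gm46632, Arsi, Wbp11, Gm46874, Gm16013 and Gm33919. The other 13 were lost under at least 1, and none changed sign. Gm29642 was lost by limma-voom and without WT replicate 1 of the KO cohort or ifWT replicate 2 (adjusted p of up to 0.371), Gm41429 without ifWT replicate 2 (0.0662), Cdk19 by limma-voom (0.0786), and Zfp972 under 6 alternatives (up to 0.230). Zfp972, a zinc finger gene, had 41 and 69 counts in ifWT and 58 and 42 in ifKO, against 63 and 77 in WT and 11 and 31 in KO.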

How the results depend on the processing

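Depth limits the weak regions, where few counts are spread over 2 libraries a group. Regions called in ifKO against ifWT numbered 706 with DESeq2 (691 higher, 15 lower). Lower regions numbered 351 with all 12 libraries and 47 with library totals. Leaving out 1 library in turn gave 908 to 2166 called regions, 884 to 1758 higher and 24 to 408 lower; of the fits that leave 1 library in a group, the lone library is assumed to vary like the rest. The split of calls was 93.5% higher, and 81.9% with all 12 libraries. Differences between KO and ifKO numbered 252 with all 12 libraries (234 larger in KO) and 53 with limma-voom (45 larger in KO, 8 in ifKO), and 210 were larger in KO with library totals. Leaving out 1 library gave 59 to 290 of them, 54 to 195 larger in KO and 5 to 95 larger in ifKO. With the replicate block, which pairs libraries only by number, 1695 regions were called (1574 higher, 121 lower) and 114 differences; the correlation of same-numbered deviations was -0.06 over 25359 regions. Of 39 called named regions of ifKO against ifWT, 27 passed under all 14 alternatives and none changed sign.

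All changes of sign were in named regions that had not been called, and none was called after it. With offsets fitted to region strength the log2 change was 0.0403 at Kdm5a, 0.00331 at Fos, 0.027 at Bdnf, 0.0171 at Ssh1, -0.00506 at Ogn, -0.0144 at Gm29642, -0.000666 at Zfp972. With all 12 libraries it was -0.00400 at Kdm5d, -0.00358 at Npas4, and after the filter on mean level it was 0.00159 at Bdnf, 0.00245 at Ssh1. Leaving out 1 library in turn, the lowest and highest log2 changes were -0.14 and 5.54e-05 at Kdm5c, -0.0588 and 0.0359 at Kdm5a, -0.215 and 0.0486 at Kdm5b, -0.0931 and 0.111 at Kdm5d, -0.0784 and 0.0516 at Fos, -0.0607 and 0.0807 at Npas4, -0.122 and 0.105 at Bdnf, -0.101 and 0.00912 at Nr4a1, -0.0455 and 0.0256 at the start of Ssh1, -0.398 and 0.447 at Ogn, -0.00706 and 1.6 at Ddx4, -0.826 and 0.291 at Gm33919, -0.0902 and 0.405 at Cdk19, -0.464 and 1.04 at Gm29642, -0.391 and 0.204 at Gm41429, -0.194 and 0.432 at Zfp972. At the 4 wider Esr1 regions they were -0.22 and 0.173, -0.026 and 0.779, -0.151 and 0.00117, -0.0178 and 0.252.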
